A study of Arabidopsis thaliana with 9 samples.

Results

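The transcripts described here come from the mitochondrial genome of Arabidopsis thaliana: all 31 loci of the table whose code starts with ATMG, out of 20777 loci in all. They were measured on 9 Affymetrix ATH1 arrays, a short-oligonucleotide array for this species, hybridised with RNA from the vegetative part of Col-0 seedlings that had reached stage 1.04. They grew on MS medium at 22 °C in a cycle of 16 h light and 8 h dark. The groups were the wild type (WT), the scarecrow mutant scr-3 and the short-root mutant shr-5, with 3 biological repeats each. SCARECROW (SCR) and SHORT-ROOT (SHR) are GRAS transcription factors known for patterning the root ground tissue, and the series title asks how both act on leaf growth. The labels do not state how many plants went into a repeat. Each value is a log2 signal made with RMA, which corrects background, equalises the arrays' distributions and summarises the probes of a locus.

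The mitochondrial genome of plants encodes part of the respiratory chain (subunits of complexes I, III and IV), part of the ATP synthase, factors that attach haem to c-type cytochromes, ribosomal proteins, and ribosomal and transfer RNAs. The remaining subunits of these complexes, and the RNA polymerases, helicases, splicing and editing factors that make and process the mitochondrial transcripts, are encoded in the nucleus and imported. Many mitochondrial transcripts are spliced and edited from C to U. In plant mitochondria a poly(A) tail marks a transcript for decay, whereas labelling for this type of array usually starts at such a tail. The primer used here is not given in the sources.

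The sources used here pair none of the 31 ATMG codes with a gene name, so the loci are named by code and no role is given to any of them. Chromosome 2 of Arabidopsis also carries a large copy of the mitochondrial genome. Which probes of an ATMG locus match that copy as well is not given in the sources, so signal from it cannot be told apart from signal of the organelle.

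Across these 31 loci no transcript passed the test in any comparison, and most differences between genotypes were small. Over all loci 0.366% passed in scr-3 against WT, 8.14% in shr-5 against WT and 1.34% between the mutants. Small differences were also common there: in scr-3 against WT 10998 of 20777 loci differed by less than 0.1, beside 19 of the 31. The median difference was 0.05 on the log2 scale in scr-3 against WT, -0.05 in shr-5 against WT and -0.06 in shr-5 against scr-3. Over all loci the medians were 0.00, -0.01 and -0.01. The direction of the shr-5 median against WT was not held: it was 0.0110 without shr-5 replicate 2. Between the mutants the median stayed between -0.12 and -0.0165 in the other ways of fitting that kept all 31 loci. Leaving out the lower 40% of loci by signal keeps 4 of the 31. Over that smaller set the 2 medians with shr-5 were 0.19 and 0.15. The locus with the largest difference was ATMG01220, which had its 3 lowest values on the scr-3 arrays. In bulk tissue, fewer cells of a type and less RNA per cell cannot be told apart.

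The mitochondrial loci were dim. Their means over the 9 arrays ran from 3.63 for ATMG01400 to 6.92 for ATMG00660, with a median of 4.50, and 30 of the 31 lay below 6.56, the median of all loci. The table as a whole spanned 2.90 to 14.03. By mean value, 5 loci lay under 4, 17 between 4 and 5, 6 between 5 and 6, and 3 above 6. The last 3 were ATMG00660, ATMG01370 (6.33) and ATMG01360 (6.0). Probe sets differ in how brightly they report a given amount of RNA, so this order describes signals and not amounts of transcript. In the same tissue the 73 plastid loci had a median of 11.62, and 70 of these lay above the lower 40% of all loci, where 27 of the 31 mitochondrial loci were found.

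Within a genotype the 3 arrays of a mitochondrial locus differed by a pooled SD of 0.05 to 0.42, with a median of 0.14. The corresponding median was 0.13 over all loci and 0.10 over the plastid loci. ATMG00130 and ATMG00070 had the tightest values, both with a pooled SD of 0.05. The widest were ATMG00660 and ATMG01260 (both 0.42), ATMG00840 (0.37) and ATMG00670 (0.28).

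**Figure D1:**
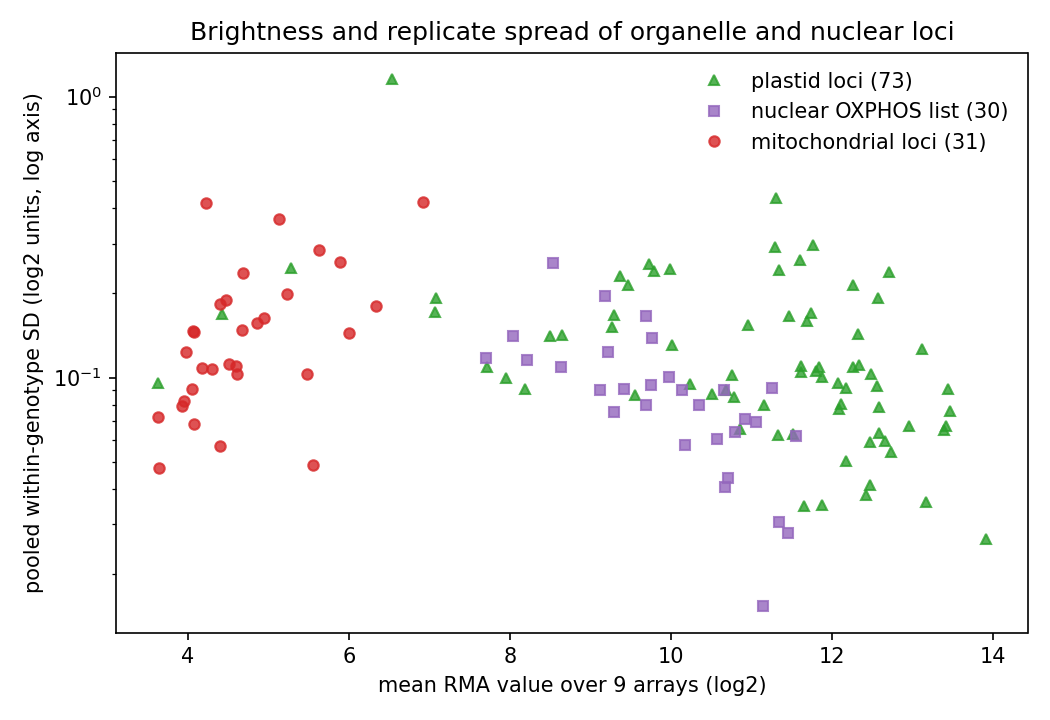
Pooled SD within a genotype (log2 units, on a log axis) against the mean RMA value over 9 arrays (log2) for 31 mitochondrial loci, 73 plastid loci and 30 measured nuclear genes of the respiratory chain and ATP synthase list. The mitochondrial loci sit at the left, between 3.63 and 6.92, and their SDs run from 0.05 to 0.42.

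Before the comparisons, the arrays themselves need a word. Across all loci, which are not independent replicates, shr-5 replicate 3 correlated with the other arrays at r = 0.970 to 0.979, and those 8 correlated among themselves at 0.983 to 0.997. SHR fell by 1.89 in shr-5 against WT (limma adjusted p = 2.87e-05), whereas SCR differed by -0.57 in scr-3 (limma adjusted p = 0.110), with every scr-3 array below every WT array. SCR was also lower in shr-5 against WT (-0.51), where both genes passed, and SHR differed by -0.39 in scr-3. Between the mutants SCR differed by 0.06, so its signal does not tell scr-3 from shr-5. Of the tissue markers, 4 measured leaf genes such as RCA lay between 9.56 and 13.86, 5 root genes between 4.20 and 6.35 and 5 flower genes between 3.26 and 4.35. None of the 14 passed in any comparison, beside 0.366% of all loci in scr-3, 8.14% in shr-5 and 1.34% between the mutants. In shr-5 against WT all 4 leaf genes, all 5 root genes and 2 of the 5 flower genes lay below 0, beside 10912 of 20777 loci. The leaf and root medians were both -0.10. Among the leaf genes GLK2, a regulator of chloroplast development, differed by -0.47 there (limma adjusted p = 0.0876). The part of this in the mitochondrial values was not tested.

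On shr-5 replicate 3 the mitochondrial loci did not stand apart. Their median deviation from the WT mean of the locus was 0.06 there, with 18 of 31 loci above that mean. On shr-5 replicates 1 and 2 the medians were -0.05 and -0.06, with 12 and 10 of 31 above. The scr-3 arrays had medians of 0.01, 0.10 and 0.00, with 18, 20 and 15 loci above the WT mean. Among the WT arrays themselves the medians were -0.03, -0.02 and 0.04, with 10, 13 and 24 loci above. The array medians of the 3 genotypes overlapped, and the lowest and the second highest were both from shr-5.

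**Figure D2:**
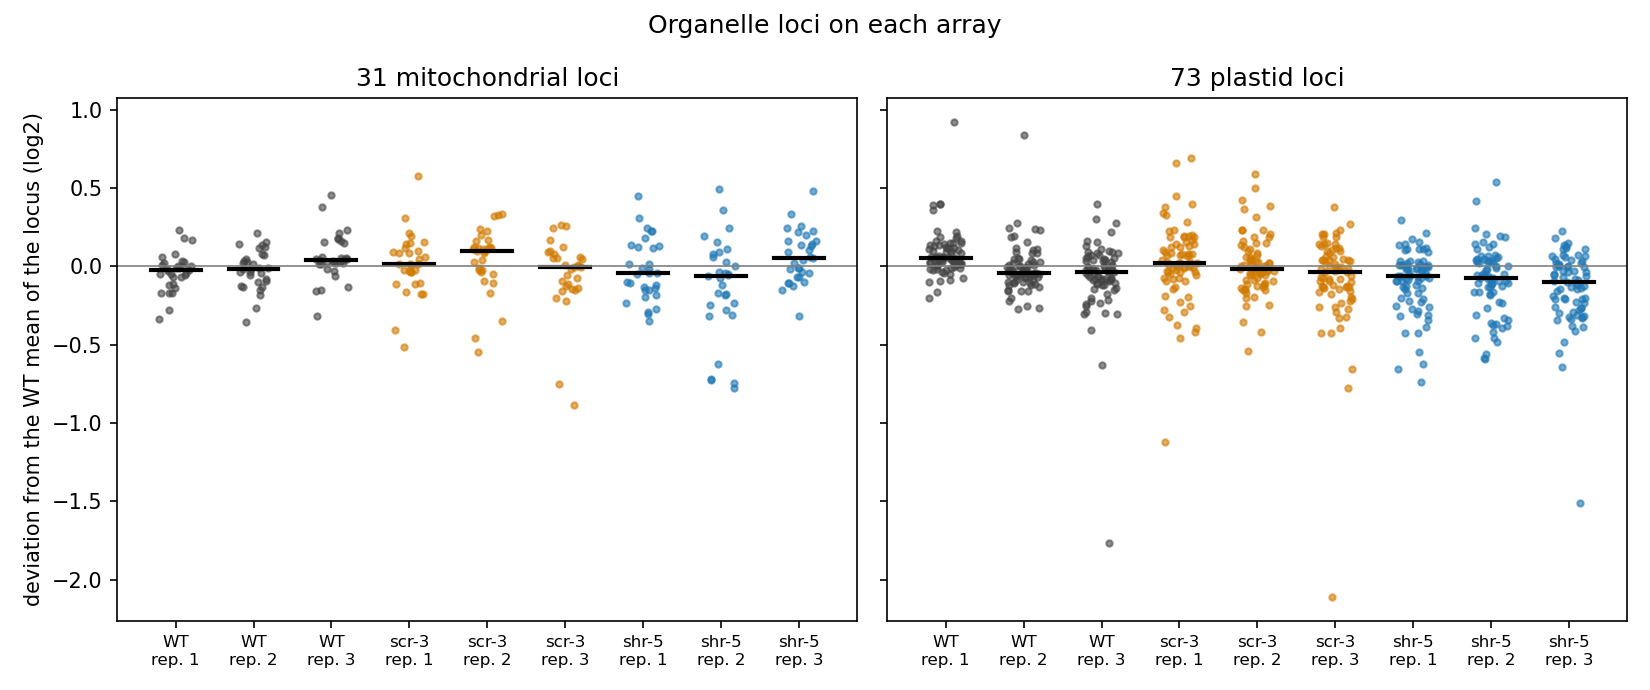
Deviation of each locus from its own WT mean (log2) on each of the 9 arrays, for 31 mitochondrial loci (left) and 73 plastid loci (right). Points are loci and black bars are medians. The mitochondrial medians lie between -0.06 and 0.10 with no separation of the genotypes, and 5 loci form a lower group on shr-5 replicate 2.

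The widest deviations were on 2 arrays. On shr-5 replicate 2, 5 of the 31 loci lay more than 0.6 below their WT mean, a limit chosen after the values had been seen. They were ATMG00660 (-0.78), ATMG00840 (-0.74), ATMG00670 (-0.72), ATMG01260 (-0.72) and ATMG01330 (-0.63). Over all loci 2.98% lay as far below on that array. By pooled SD these 5 ranked 1, 3, 4, 2 and 6 from the widest of the 31, and this array itself enters that SD. On the other shr-5 arrays no mitochondrial locus did so. On scr-3 replicate 3, ATMG00840 and ATMG01220 did, beside 1.17% of all loci. No mitochondrial locus lay more than 0.6 above its WT mean on any array. Of the 31 loci, 11 had their lowest value of all 9 arrays on shr-5 replicate 2 and 6 on shr-5 replicate 1. The same count was not made over all loci.

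The most variable loci are given array by array. ATMG00660 was 7.07, 7.02 and 6.57 in WT, 7.46, 7.04 and 6.81 in scr-3, and 7.0, 6.11 and 7.22 in shr-5. ATMG00670 was 5.69, 5.84 and 5.54 in WT, 6.0, 5.86 and 5.49 in scr-3, and 5.68, 4.97 and 5.58 in shr-5. Both were highest on scr-3 replicate 1 and lowest on shr-5 replicate 2, with overlapping genotypes. ATMG01260 was 4.22, 3.89 and 4.63 in WT, 4.40, 4.22 and 4.10 in scr-3, and 4.26, 3.52 and 4.73 in shr-5. It was highest on replicate 3 of WT and of shr-5 and lowest on shr-5 replicate 2, and its genotype means were within 0.08 of each other (-0.01 in scr-3 and -0.08 in shr-5 against WT).

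For the loss of SCR, scr-3 was set against WT, and 0 of 31 loci passed (limma, adjusted p under 0.05 over all loci) and 2 did at an unadjusted p under 0.05. Of all loci, 0.366% passed and 11% had an unadjusted p under 0.05. The difference was above 0 for 18 loci and below 0 for 13, beside 10708 and 10069 over all loci. Of the 31, 19 differed by less than 0.1, beside 10998 of 20777 over all loci.

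ATMG01220 had the largest difference in scr-3. It was 5.74, 6.07 and 6.25 in WT and 5.62, 5.56 and 5.14 in scr-3. All scr-3 arrays lay below all WT arrays, although the highest scr-3 and the lowest WT array were close. The difference was -0.58 (SE 0.18, 95% interval -0.99 to -0.17, limma adjusted p = 0.243), a 1.5-fold lower signal. ATMG00840 was 5.08, 5.29 and 5.87 in WT and 4.90, 5.06 and 4.66 in scr-3, again without overlap. Its difference was -0.54 (SE 0.25, limma adjusted p = 0.493), and its interval from -1.11 to 0.03 holds both no change and more than a 2-fold fall. Without WT replicate 3 it was -0.31. ATMG01330 followed at -0.27 (limma adjusted p = 0.632), with overlapping arrays. By replicate number it was 5.14, 4.64 and 4.94 in WT and 4.87, 4.36 and 4.69 in scr-3, lower in each same-numbered pair. With the replicate number as a block the limma adjusted p was 0.211. The difference was -0.15 without WT replicate 1 and -0.13 without scr-3 replicate 2, fits that each break such a pair.

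Among the positive differences in scr-3, that of ATMG00070 had an unadjusted p under 0.05. The locus was 5.38, 5.41 and 5.48 in WT and 5.57, 5.64 and 5.66 in scr-3, so that every scr-3 array lay above every WT array. The difference was 0.21 (SE 0.07, 95% interval 0.05 to 0.36, limma adjusted p = 0.268). On the shr-5 arrays the same locus was 5.64, 5.57 and 5.56, also above every WT array. That difference was 0.17 (limma adjusted p = 0.155), and both comparisons use the same WT arrays. ATMG00660 had a larger difference in scr-3, 0.22, with an SE of 0.29, and ATMG01130 differed by 0.20 (limma adjusted p = 0.612). Single arrays moved both: ATMG00660 was at 0.04 without scr-3 replicate 1, 0.06 without WT replicate 3 and 0.37 without scr-3 replicate 3, and ATMG01130 at 0.10 without WT replicate 2.

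Counting loci whose arrays did not overlap gave 6 of 31 in scr-3 against WT, beside 22% of all loci. They were 3 higher and 3 lower, beside 11.5% and 10.6% of all loci. The higher ones were ATMG00070, ATMG00710 and ATMG00130, and the lower ones ATMG01220, ATMG00840 and ATMG00690. These shares are close to those over all loci.

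For SHR, shr-5 was set against WT, and again 0 of 31 loci passed and 2 had an unadjusted p under 0.05, ATMG00070 and ATMG01330. Of all loci, 8.14% passed (limma, adjusted p under 0.05) and 24.6% had an unadjusted p under 0.05. The difference was above 0 for 12 loci and below 0 for 19, beside 9865 and 10912 over all loci. Non-overlapping arrays were found for 4 of 31 loci, beside 29.3% of all loci. They were 2 higher (ATMG00070 and ATMG00160) and 2 lower (ATMG01330 and ATMG00680), beside 14.3% and 15.1% of all loci.

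ATMG01330 had the largest difference in shr-5. It was 5.14, 4.64 and 4.94 in WT, 4.87, 4.36 and 4.69 in scr-3, and 4.64, 4.28 and 4.59 in shr-5. The shr-5 arrays lay below the WT arrays, but the highest of the former and the lowest of the latter were equal to 2 decimals. In shr-5 the difference from WT was -0.40 (SE 0.17, 95% interval -0.78 to -0.02, limma adjusted p = 0.176), a 1.32-fold lower signal. Replicate 2 was the lowest array of this locus in all 3 genotypes. ATMG00840 differed by -0.30 and ATMG00670 by -0.28, with limma adjusted p-values of 0.512 and 0.427. Without shr-5 replicate 2 these 2 differences were -0.08 and -0.06. That of ATMG00840 was also -0.07 without WT replicate 3, -0.47 without WT replicate 1 and -0.52 without shr-5 replicate 3.

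At the upper end in shr-5 stood ATMG01370, which was 6.21, 6.13 and 6.44 in WT and 6.39, 6.75 and 6.35 in shr-5. The arrays overlapped, and the difference of 0.24 (SE 0.13) did not pass (limma adjusted p = 0.306). ATMG01360 was 5.82, 6.09 and 5.72 in WT and 6.01, 6.12 and 6.13 in shr-5, a difference of 0.21 (limma adjusted p = 0.290). ATMG00640 differed by 0.18 (limma adjusted p = 0.375). Without shr-5 replicate 2 the differences of ATMG01370 and ATMG00640 were 0.12 and 0.09, and that of ATMG01360 was 0.13 without WT replicate 3 and 0.32 without WT replicate 2. ATMG00160 lay at 4.71, 4.72 and 4.69 on the shr-5 arrays and at 4.56, 4.56 and 4.47 in WT, without overlap, with a difference of 0.18 (limma adjusted p = 0.285).

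**Figure D3:**
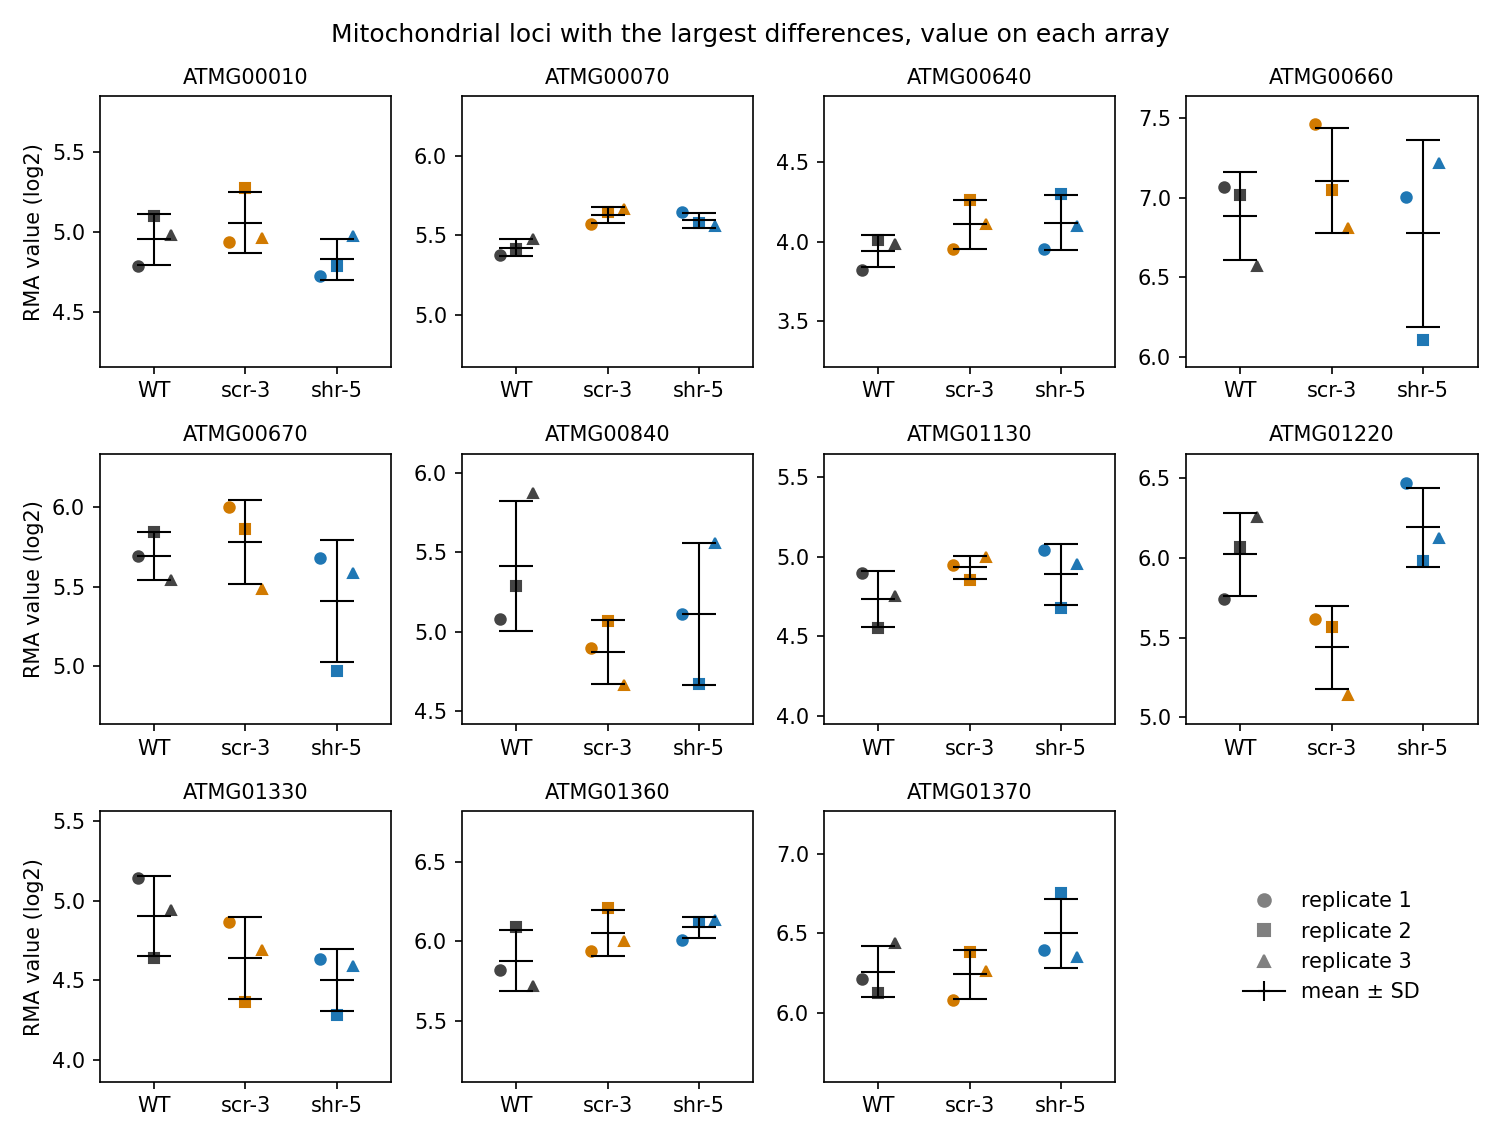
RMA value (log2) on each array for the 11 mitochondrial loci that hold the 3 largest positive or negative differences of a comparison. Every panel spans the same log2 range, point shapes mark the replicate, and bars are the mean ± SD of 3 arrays. ATMG01220 is low on all scr-3 arrays (5.14 to 5.62), and ATMG00660 varies most within a genotype.

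Between the mutants, ATMG01220 came nearest to the threshold of all 31 loci in any comparison. It was 6.47, 5.98 and 6.13 on the shr-5 arrays, all above the scr-3 arrays at 5.62, 5.56 and 5.14. The difference was 0.75 (SE 0.18, 95% interval 0.34 to 1.16, unadjusted p = 0.00248 and limma adjusted p = 0.0819), a 1.68-fold higher signal in shr-5. Against WT the shr-5 arrays of this locus overlapped and differed by 0.17 (limma adjusted p = 0.617). Across the 15 other ways of fitting, the difference between the mutants stayed between 0.60 and 0.86 and its adjusted p between 0.0711 and 0.244.

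In shr-5 against scr-3 0 of 31 loci passed (limma, adjusted p under 0.05), beside 1.34% of all loci. At an unadjusted p under 0.05 there were 3, ATMG01220 and, with lower values in shr-5, ATMG00710 (-0.22) and ATMG00130 (-0.17), beside 16.7% of all loci. ATMG00710 was 4.18, 4.23 and 4.09 in scr-3 and 3.89, 3.85 and 4.10 in shr-5, with overlap on 1 array. ATMG00130, among the dimmest loci, was 3.71, 3.75 and 3.72 in scr-3 and 3.61, 3.55 and 3.50 in shr-5. Arrays did not overlap for 3 of 31 loci, beside 21% of all loci. They were 1 higher (ATMG01220) and 2 lower (ATMG00130 and ATMG00680), beside 10.2% and 10.8% of all loci. Lower values in shr-5 were also found for ATMG00670 (-0.37), ATMG00660 (-0.33) and ATMG00010 (-0.23), and higher ones for ATMG01370 (0.26) and ATMG00840 (0.24), with limma adjusted p-values of 0.374 to 0.683. All 5 moved by over 1.5 times when 1 array was left out. Without shr-5 replicate 2 ATMG00660 turned to 0.0036, ATMG00670 was at -0.15, ATMG01370 at 0.13 and ATMG00840 at 0.46. Without shr-5 replicate 3 ATMG00840 was at 0.01 and ATMG00660 at -0.55. Leaving out 1 scr-3 array put ATMG00010 at -0.12 (without replicate 2), ATMG00660 at -0.15 (without replicate 1) and ATMG00840 at 0.13 (without replicate 3).

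The intervals say how large a change these arrays leave room for. The half-width of the 95% interval, which is not adjusted for the number of loci, ran from 0.15 to 0.65 over the mitochondrial loci with a median of 0.25, and over all loci the median was 0.24. In scr-3 against WT the interval stayed within a 1.5-fold change in either direction for 26 of 31 loci and within a 2-fold change for 30, all but ATMG00840. In shr-5 against WT these counts were 26 and 31. Between the mutants they were 26 and 30, and there ATMG01220 reached beyond 2-fold. For all loci the shares within 1.5-fold were 84.5%, 76.5% and 80.5%, and those within 2-fold were 95.7%, 92.6% and 94.1%. A locus that misses the threshold is not thereby shown to be equal between genotypes.

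**Figure D4:**
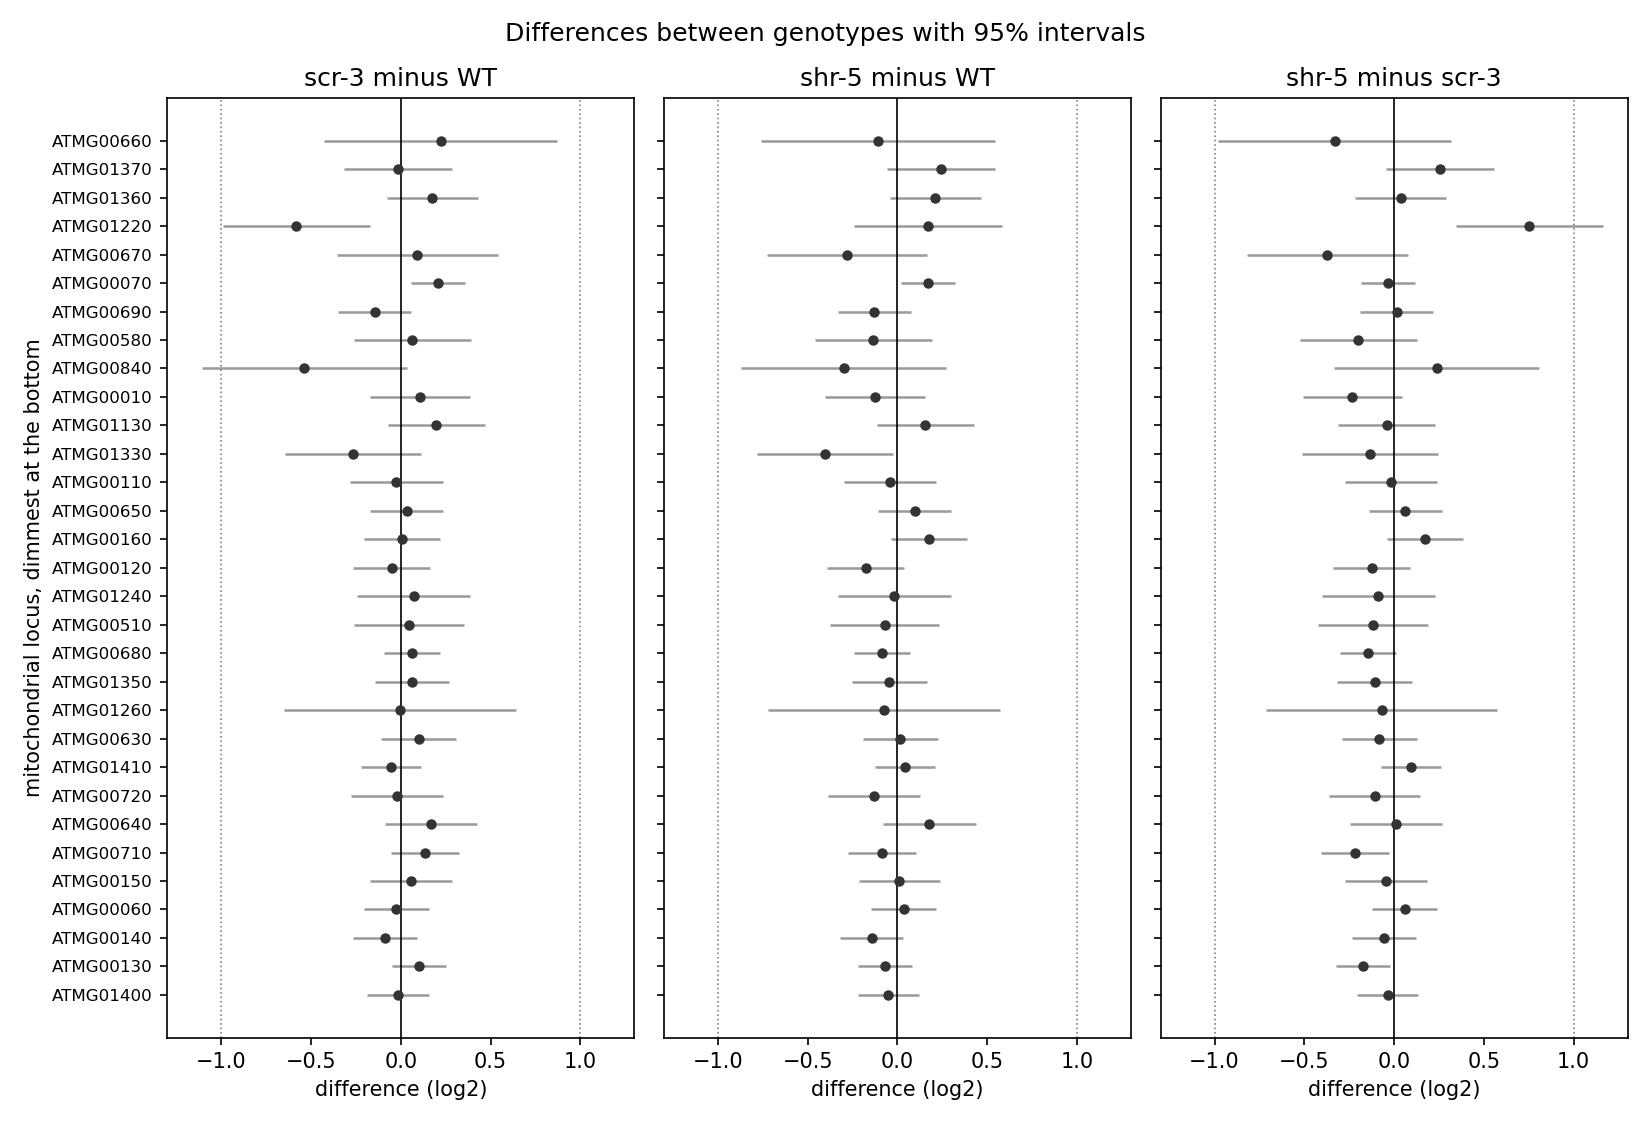
Difference (log2) of each of the 31 mitochondrial loci in the 3 comparisons, ordered by mean signal, with limma's 95% interval as the horizontal bar and dotted lines at a 2-fold change. Of the 31 points 19, 14 and 15 lie within 0.1 of 0, beside 10998, 8186 and 9306 of 20777 over all loci. ATMG01220 stands out at -0.58 in scr-3 against WT and at 0.75 in shr-5 against scr-3.

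The 20 loci not among the 11 with the largest differences stayed between -0.15 and 0.13 in scr-3 and between -0.18 and 0.18 in shr-5 against WT, and between -0.22 and 0.17 between the mutants. They include ATMG00060 at 3.84 to 4.07 over the 9 arrays, ATMG01400 at 3.54 to 3.75 and ATMG01410 at 3.97 to 4.20, whose genotypes overlapped throughout. ATMG00580 was brighter, at 4.90 to 5.50, and differed by 0.06 in scr-3 and -0.14 in shr-5 against WT. ATMG00510 was 4.41, 4.53 and 4.28 in WT, 4.46, 4.43 and 4.47 in scr-3, and 4.26, 4.10 and 4.65 in shr-5, so the shr-5 arrays enclosed the values of both other genotypes. ATMG00690 was 5.51, 5.50 and 5.72 in WT and 5.40, 5.47 and 5.42 in scr-3, a difference of -0.15.

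The other organelle genome, measured by 73 plastid loci, gave 0 calls in scr-3 and 3 in shr-5 against WT, all lower, and 0 between the mutants, beside 0.366%, 8.14% and 1.34% of all loci. The median plastid differences were -0.01, -0.06 and -0.06. In shr-5 against WT 53 of 73 plastid loci and 19 of 31 mitochondrial loci lay below 0, beside 10912 of 20777 over all loci. The 2 sets share all arrays and differ in brightness, and a difference between them was not tested.

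Among the nuclear partners of the mitochondrial genome, 1 listed respiratory gene passed in each comparison with WT, beside 0.366% of all loci in scr-3 and 8.14% in shr-5. Of 36 listed nuclear genes of the respiratory chain and the ATP synthase 30 were measured, and their medians were 0.02 in scr-3, 0.06 in shr-5 and 0.07 between the mutants. SDH2-1, an iron-sulfur subunit gene of succinate dehydrogenase (complex II), was 8.81, 9.02 and 8.85 in WT, 8.98, 9.17 and 9.16 in scr-3, and 9.38, 9.33 and 9.34 in shr-5. It rose in shr-5 against WT by 0.46 (SE 0.08, limma adjusted p = 0.0133), as 1 of 30. The call was lost without WT replicate 1 or 3 (adjusted p = 0.0519 and 0.0559). AT3G15640, which has no symbol in the reference table, was 8.56, 8.57 and 8.38 in WT and 7.78, 8.06 and 7.86 in scr-3, with no overlap. It fell in scr-3 by 0.60 (SE 0.10, limma adjusted p = 0.0445), as 1 of 30. With the replicate number as a block its adjusted p was 0.0957, and the call was also lost in 8 of the 9 fits that left out 1 array, all but that without shr-5 replicate 3 (adjusted p up to 0.173). No listed gene passed between the mutants (limma), where 6 of 30 had an unadjusted p under 0.05, beside 16.7% of all loci. In shr-5 against WT 20 of the 30 lay above 0, beside 9865 of 20777 over all loci. Arrays did not overlap for 14, beside 29.3% of all loci. Of these 12 were higher, beside 14.3% of all loci, and 2 were lower, beside 15.1%. At an unadjusted p under 0.05 there were 8 of 30, beside 24.6% of all loci. They were 7 higher and 1 lower, beside 2569 and 2544 of 20777 over all loci.

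Of 14 listed nuclear factors of mitochondrial gene expression 11 were measured and 0 passed in any comparison (limma). At an unadjusted p under 0.05 there were 2 in scr-3, 1 in shr-5 and 1 between the mutants, beside 11%, 24.6% and 16.7% of all loci. MGP3 (AT1G68990), a mitochondrial RNA polymerase gene, differed by 0.27 in scr-3 and 0.38 in shr-5 against WT (limma adjusted p = 0.665 and 0.236). The editing factor genes MORF1 and MORF3 were at -0.08 and -0.20 in scr-3 and at -0.16 and -0.11 in shr-5.

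The 9 genes listed as responders to mitochondrial dysfunction or their regulators gave 0 calls as well (limma), with 1, 2 and 2 at an unadjusted p under 0.05 in scr-3, in shr-5 and between the mutants, beside the same shares of all loci. AOX1A, the gene of the alternative oxidase that is induced when the cytochrome pathway is impaired, was 9.66, 8.89 and 8.77 in WT, 8.93, 9.29 and 9.23 in scr-3, and 9.44, 9.40 and 8.88 in shr-5. The genotypes overlapped, and the differences from WT were 0.04 in scr-3 (95% interval -0.50 to 0.59) and 0.14 in shr-5 (95% interval -0.41 to 0.68). NDB2, an alternative NADH dehydrogenase gene, had the largest positive differences of the list, 0.33 and 0.63 (limma adjusted p = 0.764 and 0.221). The largest negative ones against WT were -0.64 in scr-3 and -0.66 in shr-5. Against WT, those at an unadjusted p under 0.05 were all lower, beside 1187 and 2544 of 20777 lower over all loci. AT5G09570, which has no symbol in the reference table, was 6.10, 6.11 and 6.12 in WT and 5.72, 5.88 and 5.73 in shr-5, without overlap. Its difference of -0.33 did not pass (limma adjusted p = 0.0510).

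Of the codes between AT2G07660 and AT2G07840 on chromosome 2, a stretch that takes in the nuclear copy of the mitochondrial genome, 6 were in the table. They include ordinary nuclear genes such as ABCC13, a transporter gene that rose by 0.63 in shr-5 against WT (limma adjusted p = 0.0104), and MCM5, a replication licensing gene. The other 5 did not pass in any comparison, and which of them belong to the copy was not given. In scr-3, in shr-5 and between the mutants 0, 1 and 0 of the 6 passed, beside 0.366%, 8.14% and 1.34% of all loci. Arrays did not overlap for 1, 4 and 3 of the 6, beside 22%, 29.3% and 21% of all loci.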

How the data were processed

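The authors deposited log2 values from RMA (named in the submitters' processing notes). Its version, any filters and the mapping of probes to loci were not stated. The scale was read from the range of 2.90 to 14.03. The table held 20777 loci on 9 arrays, grouped by sample title, and no pair of arrays held identical values. The number of arrays limits the precision. Locus codes were matched to the reference gene table of TAIR10.1 for names: 20508 matched, and of the 31 mitochondrial codes 0 did. Loci were therefore not grouped by role, as had been planned.

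With R 4.3.3 and limma 3.58.1, 1 linear model with a mean per genotype was fitted to all loci and arrays (6 residual and 2.99 prior degrees of freedom). Two-sided p-values were adjusted over all loci (Benjamini-Hochberg), with a threshold of 0.05. The procedure was tested on simulated data with independent noise on each locus and array. That noise held no tie between same-numbered arrays and no array that stood apart, so the test does not cover these. Errors are limma's SEs. They rest on the spread between the repeats of a locus over the 3 genotypes, drawn towards a prior shared by all loci. The p-values judge each difference against that SE. In scr-3 against WT same-numbered arrays deviated together, with correlations over 0.1 in all 3 pairs (0.277, 0.138 and 0.107). From the data alone, the replicate numbers were therefore taken to pair these arrays. The main fit holds no block, so its SEs, intervals and p-values do not use this pairing. With the replicate number added as a block 52 loci passed there, against 76 without. In shr-5 against WT 1 of 3 pairs lay over 0.1 (0.204, -0.106 and 0.0994). Between the mutants 2 of 3 did (0.444, -0.0448 and 0.335), and these 2 were higher than any in scr-3 against WT. The 15 alternatives fitted only the genotypes compared, added the replicate number as a block, shifted arrays to a common median of all or of nuclear loci, left out the lower 40% of loci by signal, let the prior variance follow the signal, or left out each of the 9 arrays. Values on all arrays are given for the loci with the 3 largest positive and 3 largest negative differences of a comparison. Other loci named were chosen after their values were seen. The members and lists were chosen with earlier results of these data known.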

Additional observations from a re-analysis of the deposited data

How the results depend on the processing

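No mitochondrial locus passed in scr-3 against WT or between the mutants under any of the 15 alternatives. In shr-5 against WT 1 did, with the replicate number as a block: ATMG01330 (-0.40, adjusted p = 0.0200, against 0.104 to 0.408 in the other alternatives). Over all loci the deviations of same-numbered shr-5 and WT arrays from their genotype means correlated at 0.204, -0.106 and 0.0994. Whether the numbers pair these arrays is not known, and the cause was not tested. The block changed no other call of a mitochondrial locus. In scr-3 against WT the median difference stayed between 0.01 and 0.08. In shr-5 against WT the median was -0.11 with arrays at a common median of all or of nuclear loci, 0.19 without the lower 40% of loci by signal, which leaves 4 of the 31, and -0.10 to 0.0110 without 1 array, the last without shr-5 replicate 2. Between the mutants it was 0.15 without the lower 40% and -0.12 to -0.0165 without 1 array, the first without shr-5 replicate 3 and the last without shr-5 replicate 2. Of the differences named, that of ATMG00660 between the mutants turned sign, to 0.0036 without shr-5 replicate 2, and was -0.55 without shr-5 replicate 3. Over all loci the count of calls was 76, 1691 and 279 in scr-3, in shr-5 and between the mutants. With only the arrays compared it was 577, 807 and 24. Without 1 array it ran from 17 (without scr-3 replicate 3) to 595 (without shr-5 replicate 3), from 654 (without WT replicate 2) to 2643 (without shr-5 replicate 3) and from 33 (without scr-3 replicate 2) to 610 (without shr-5 replicate 3). The deposited table holds no detection calls, so how many of these dim loci rise above background was not tested.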
